A study of Homo sapiens with 5 samples.

Results

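The genes described here build and steer the mitotic spindle: the spindle checkpoint, the centromere and kinetochore, the mitotic kinesins, the chromosomal passenger complex, and the proteins that start anaphase and divide the cell. They are 60 genes fixed as a list of symbols, and all 60 had a row among the 13822 genes of the table. The values come from RH4, a cell line of alveolar rhabdomyosarcoma, a childhood tumour with features of skeletal muscle precursors. The cells were transfected with 30 nM of either si-SCR, a scrambled control siRNA (3 libraries), or si-circVAMP3, an siRNA against the back-splicing junction of the circular RNA circVAMP3 (2 libraries). The medium was changed after 24 h, the cells were harvested after a further 24 h, and poly-A+ RNA was sequenced. Every library is from the same line, with a single siRNA sequence on the knock-down side, so the depletion of circVAMP3 and any other action of that siRNA cannot be told apart.

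At the start of mitosis, centromeres marked by the histone variant CENPA carry kinetochores, protein assemblies whose outer layer grips the ends of spindle microtubules. Kinesins, motor proteins that walk along microtubules or take them apart, push the poles apart, align the chromosomes and later organise the midzone where the cell divides. Until each kinetochore is attached, the spindle checkpoint holds back the anaphase-promoting complex, and the chromosomal passenger complex releases faulty attachments. Most of these genes are transcribed in G2 and mitosis, and their promoters are known for the CCAAT box and for the cell cycle genes homology region, an element bound by the MuvB and DREAM complexes.

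The sequence of si-circVAMP3 is shown because it is the agent that defines the knock-down group, with bases 2 to 8 of each strand, the seed, in capitals. The first line is the strand listed for the oligonucleotide and the second its complement without the overhang, and which of them was loaded was not stated.
Listed strand: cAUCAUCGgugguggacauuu
Complementary strand: aUGUCCACcaccgaugaug

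The promoters of the 3 genes with the smallest p-values among those that fell are shown for their known elements, as RefSeq windows of 300 bases on GRCh38.p14, from 250 bases before the start site to 50 after it. Capitals mark TTTGAA, the letters searched for the cell cycle genes homology region, and CCAAT, each on either strand. A further motif, TTCCCGCC for an E2F site, was searched in the same way and was not in these windows. ANLN (chr7:36389612-36389911, plus strand) held TTTGAA on both strands, 26 and 20 bases before the start site, and the copies adjoin. KIF20A (chr5:138178862-138179161, plus strand) held CCAAT at 94 and 67 bases before the start site, on the opposite strand. SKA2 (chr17:59155137-59155436, minus strand) held 5 copies of CCAAT, from 219 to 53 bases before the start site.
ANLN: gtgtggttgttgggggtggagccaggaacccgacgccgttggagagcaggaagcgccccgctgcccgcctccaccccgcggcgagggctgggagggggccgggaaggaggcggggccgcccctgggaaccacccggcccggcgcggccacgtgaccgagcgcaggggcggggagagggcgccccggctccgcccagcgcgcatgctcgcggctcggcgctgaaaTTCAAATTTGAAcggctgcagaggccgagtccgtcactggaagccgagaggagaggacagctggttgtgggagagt
KIF20A: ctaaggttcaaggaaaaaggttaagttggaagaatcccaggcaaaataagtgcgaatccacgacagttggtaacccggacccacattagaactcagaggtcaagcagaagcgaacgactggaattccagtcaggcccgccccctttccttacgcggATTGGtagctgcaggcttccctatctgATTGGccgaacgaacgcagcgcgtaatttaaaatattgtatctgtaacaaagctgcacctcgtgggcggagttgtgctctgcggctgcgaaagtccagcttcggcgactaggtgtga
SKA2: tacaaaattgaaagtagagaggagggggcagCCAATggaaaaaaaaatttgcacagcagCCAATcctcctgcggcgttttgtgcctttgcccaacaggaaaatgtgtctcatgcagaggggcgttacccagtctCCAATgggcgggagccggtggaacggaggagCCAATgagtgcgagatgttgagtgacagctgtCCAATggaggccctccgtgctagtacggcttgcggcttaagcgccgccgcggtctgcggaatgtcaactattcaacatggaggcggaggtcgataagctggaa

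The deposited values are FPKM, fragments scaled to gene length and library size, so that levels can be compared between genes. Whole reads could be recovered from the exact ratios between libraries for all 13822 genes, and their totals were 26938637, 25529276 and 25432308 in the si-SCR libraries and 18978696 and 29367311 in the si-circVAMP3 libraries. Of 8 myogenic markers, all 8 were in the table, with means from 2.26 to 269 FPKM and a summed level between 634 and 765 FPKM per library. Among them MYOG, a factor of muscle differentiation, fell (-0.76, adjusted p = 0.00156), as did FOXO1 (-0.26, adjusted p = 0.0241; not called without si-SCR replicate 2 or either si-circVAMP3 library, values from -0.30 to -0.22), whereas the other 6 were not called, from CDH15 at -0.35 to MYOD1 at 0.20. The part of differentiation in the values below was not tested. Of 8 markers of leukocytes, epithelium, endothelium and glia, PECAM1 was the only row, at a mean of 0.109 FPKM. VAMP3, the host gene, had a mean of 36.4 ± 1.01 FPKM (SD, n = 3) in si-SCR and 29.8 ± 0.588 FPKM (SD, n = 2) in si-circVAMP3, a log2 fold change of -0.29 (SE 0.043, adjusted p = 0.00496). Without si-circVAMP3 replicate 1 this call was lost, at -0.27. A gene-level row mostly reads the linear mRNA, and a circular RNA has no poly-A tail, so these values do not check the depletion of circVAMP3.

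In the si-circVAMP3 libraries, motors of the spindle and midzone (KIF20A, KIF14, CENPE), the cytokinesis scaffold ANLN, the centromere histone CENPA and the kinase AURKB were lower, and MIS12 and KIF2C were higher. The means of the genes called lower fell by 9.33% to 40.1%. Of the 59 genes tested, 21 were called lower and 2 higher at adjusted p < 0.05, and 36 were not called. Among all 12245 genes tested, 15.8% were called lower and 14.6% higher, against 35.6% and 3.39% of the mitotic genes; 30.4% of all genes were called in either direction. The median log2 fold change of the mitotic genes was -0.09, and 43 of 59 (72.9%) were below 0, beside a median of 0.007 and 48.7% below 0 over all genes. With each library centred on its median gene, the calls were 16 lower and 4 higher among the mitotic genes, and 1690 lower and 2004 higher among all genes, against 1939 and 1784 without centring. The 60th gene, MAD1L1, was not tested because its mean was under 0.5 FPKM. The counts of genes called are descriptive, since the list was chosen with results of these data known. In RNA from a whole culture, fewer cells in mitosis and less RNA per mitotic cell cannot be told apart.

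The changes were small and the libraries of a group lay close together. Only ANLN and KIF20A were called with a log2 fold change below -0.58 (3.39% of those tested, beside 2.72% of all genes) and none of the 59 above 0.58, beside 1.09% of all genes. Over the members, the median difference from the si-SCR mean was 0.007, -0.009 and -0.005 on the log2 scale in the si-SCR libraries, and -0.075 and -0.125 in the si-circVAMP3 libraries. In the si-circVAMP3 libraries it was -0.35 and -0.32 for the 21 genes called lower, which restates how they were called, and 0.007 and -0.029 for those not called. The si-circVAMP3 libraries both lay below all 3 si-SCR libraries for 32 of 59 genes (54.2%, beside 28.9% of all genes) and above them for 12 (20.3%, beside 29.5%).

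**Figure D1:**
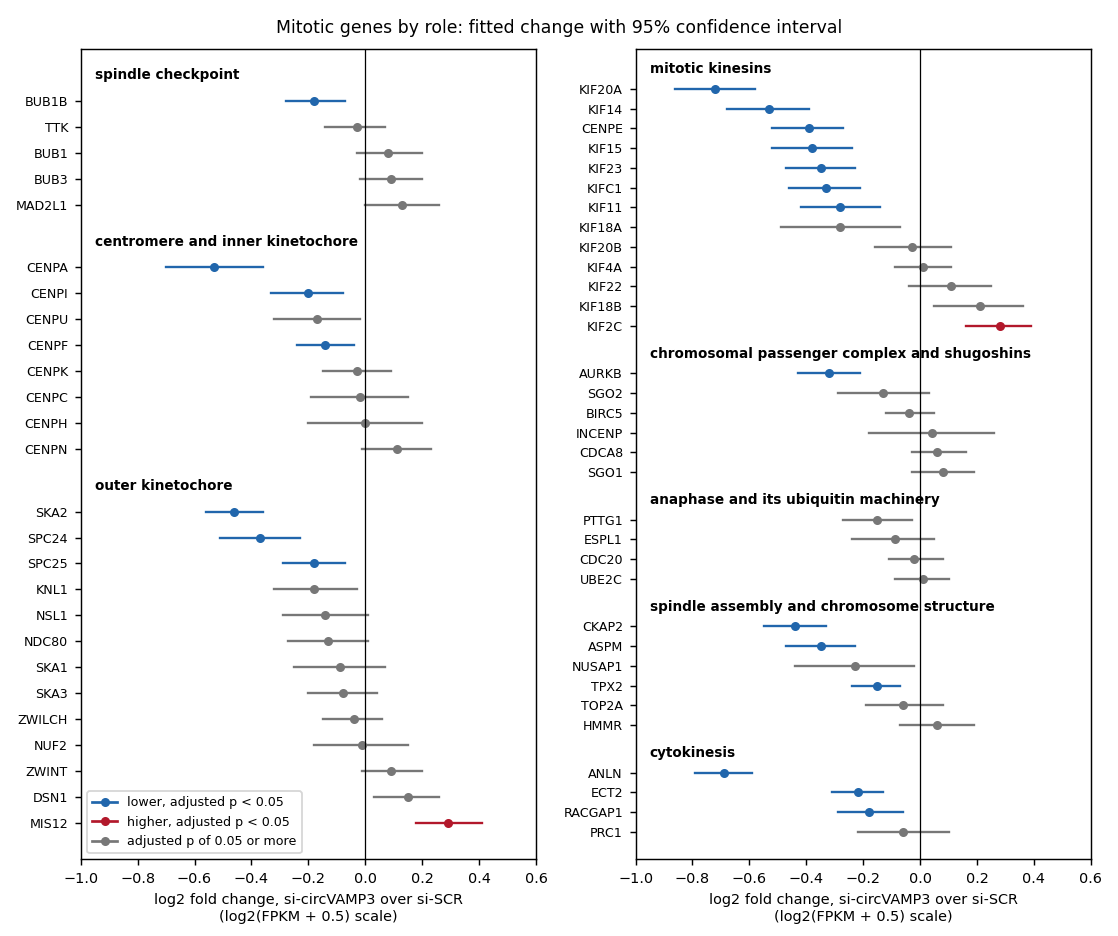
Log2 fold change of 59 mitotic genes, si-circVAMP3 over si-SCR on the log2(FPKM + 0.5) scale, with limma's 95% confidence interval as a line and genes grouped by role. The 21 genes called lower (blue) run from KIF20A at -0.72 to CENPF at -0.14, and the 2 called higher (red) are MIS12 at 0.29 and KIF2C at 0.28.

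**Figure D2:**
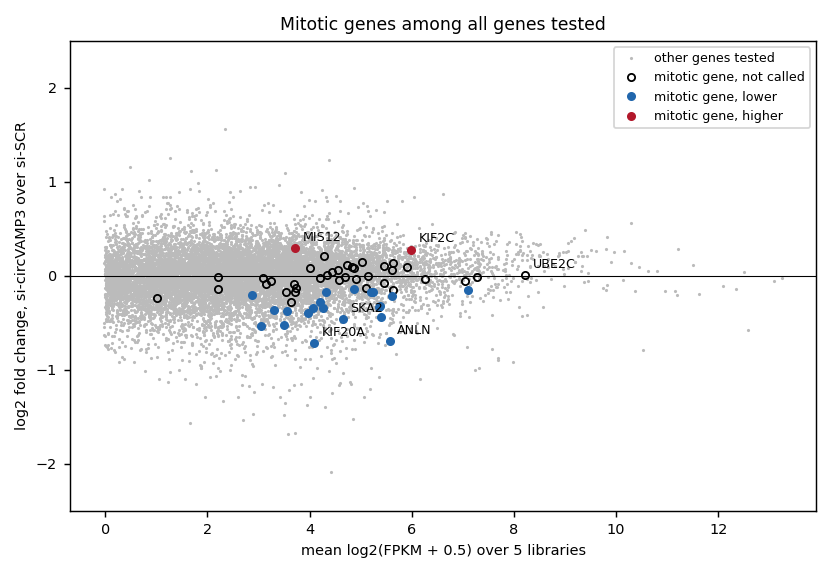
Log2 fold change against the mean log2(FPKM + 0.5) over 5 libraries for all 12245 genes tested (grey), with the mitotic genes as circles. The mitotic genes lie within the cloud of all genes, from -0.72 to 0.29.

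Of 13 mitotic kinesins, 7 fell (KIF20A, KIF14, CENPE, KIF23, KIF15, KIFC1 and KIF11), 1 rose (KIF2C) and 5 were not called, with a median of -0.28. The shares were 53.8% lower and 7.69% higher, beside 15.8% and 14.6% of all genes. The motors that fell serve different steps: KIF11 and KIF15 drive spindle bipolarity, KIFC1 focuses the poles, CENPE carries chromosomes to the equator, and KIF20A, KIF23 and KIF14 act at the midzone and in cytokinesis.

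KIF20A, which brings the chromosomal passenger complex to the midzone, was at 20.13, 20.58 and 20.23 FPKM in si-SCR and 12.86 and 11.48 in si-circVAMP3. Its mean fell by 40.1%, a log2 fold change of -0.72 (SE 0.058, adjusted p = 0.000635). KIF14, a partner of PRC1 and citron kinase, was at 9.2, 8.52 and 9.45 FPKM in si-SCR and 6.18 and 6.04 in si-circVAMP3, a log2 fold change of -0.53 (SE 0.061, adjusted p = 0.00188). In both, the groups were far apart beside the spread within them. CENPE, the kinetochore motor, was at 17.9, 16.69 and 16.66 FPKM against 13.22 and 12.54 (-0.39, adjusted p = 0.00348). KIF23, the motor of centralspindlin, was at 19.81, 20.93 and 21.18 FPKM against 15.75 and 16.48 (-0.35, adjusted p = 0.00421). These 4 motors kept their calls when any single library was left out.

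KIF15 was at 12.52, 12.01 and 13.04 FPKM in si-SCR and 9.89 and 9.18 in si-circVAMP3 (-0.38, adjusted p = 0.00544). KIFC1 was at 43.41, 47.73 and 43.43 FPKM against 35.1 and 35.76 (-0.33, adjusted p = 0.006). KIF11, the target of spindle poisons that give monopolar spindles, was at 19.24, 18.38 and 20.54 FPKM against 15.63 and 16.07 (-0.28, adjusted p = 0.0131). The groups did not overlap in any of these 3, which largely restates how they were called, and the calls rested on the number of libraries. KIF15 lost its call without si-circVAMP3 replicate 2 (-0.325), KIFC1 without si-circVAMP3 replicate 1 (-0.32), and KIF11 without either si-circVAMP3 library (-0.26 without replicate 1 and -0.30 without replicate 2).

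KIF2C, a kinesin that depolymerises microtubules at centromeres and does not walk, was the kinesin that rose. It was at 58.67, 59.32 and 57.59 FPKM in si-SCR and 74.19 and 67.99 in si-circVAMP3, a rise of 21.5% in the mean (0.28, SE 0.048, adjusted p = 0.00776). Without si-circVAMP3 replicate 1 the value was 0.215 and the call was lost. KIF18A and KIF18B, 2 motors of the same family that dampen microtubule growth, gave values on opposite sides of 0, -0.28 (95% interval -0.49 to -0.07) and 0.21 (0.05 to 0.36), and neither was called, with adjusted p of 0.0544 and 0.0533. Without si-circVAMP3 replicate 1, KIF18A was called, at -0.40, and without si-circVAMP3 replicate 2 it was at -0.15 and not called; KIF18B was called higher with median centring, with a filter at a mean of 2 FPKM and with limma-voom on the recovered reads. KIF4A, a chromosome-arm kinesin, was at 19.96, 19.57 and 19.74 FPKM against 19.98 and 19.82, with an interval of -0.09 to 0.11. KIF20B and KIF22 were at -0.03 (-0.16 to 0.11) and 0.11 (-0.04 to 0.25).

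Cytokinesis genes fell in 3 of 4 cases (75%, beside 15.8% of all genes) and none rose (beside 14.6%), with a median of -0.20. ANLN, the scaffold of the contractile ring, had the smallest p-value of the whole set. It was at 58.44, 57.03 and 55.72 FPKM in si-SCR and 35.83 and 34.38 in si-circVAMP3, so that its mean fell by 38.5% (-0.69, SE 0.042, adjusted p = 0.000255). ECT2, the exchange factor that activates RhoA at the equator, was at 52.07, 50.88 and 52.56 FPKM against 44.5 and 44.43 (-0.22, adjusted p = 0.00758). RACGAP1, which recruits ECT2 as the partner of KIF23, was at 38.15, 38.12 and 37.83 FPKM against 35.05 and 32.12 (-0.18, adjusted p = 0.0334). ANLN kept its call with any library left out. ECT2 lost it without either si-circVAMP3 library (-0.22 each time), and RACGAP1 without si-SCR replicate 1 (-0.18), si-SCR replicate 2 (-0.18) or si-circVAMP3 replicate 2 (-0.12). PRC1, the bundler of midzone microtubules, was at 9.05, 9.66 and 8.7 FPKM against 9.15 and 8.32 (-0.06, interval -0.22 to 0.10), and without si-circVAMP3 replicate 2 the value was 0.004.

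At the outer kinetochore, 3 of 13 genes fell (23.1%, beside 15.8% of all genes), 1 rose (7.69%, beside 14.6%) and 9 were not called (median -0.09). SKA2, a subunit of the complex that tracks depolymerising microtubule ends, was at 28.04, 27.93 and 28.65 FPKM in si-SCR and 20.06 and 20.66 in si-circVAMP3 (-0.46, SE 0.041, adjusted p = 0.000855). Its partners in that complex were not called: SKA1 at -0.09 (interval -0.25 to 0.07) and SKA3 at -0.08 (-0.20 to 0.04). SKA2 kept its call with any library left out, and its interval, -0.56 to -0.36, lies below those of both partners; the difference between subunits was not tested.

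The NDC80 complex, the microtubule grip of the kinetochore, is built of a pair that faces the centromere, SPC24 and SPC25, and a pair that binds microtubules. SPC24 was at 10.29, 9.99 and 11.06 FPKM against 8.08 and 7.85 (-0.37, adjusted p = 0.00596), and SPC25, which pairs with it, at 21.03, 20.04 and 19.97 FPKM against 18.2 and 17.71 (-0.18, adjusted p = 0.0303). NDC80 itself was at 37.65, 33.43 and 34.36 FPKM against 32.76 and 31.28 (-0.13, interval -0.27 to 0.01), and NUF2, its partner, at 27.83, 24.95 and 23.91 FPKM against 25.68 and 24.87 (-0.01, interval -0.18 to 0.15). The call of SPC24 was lost without si-circVAMP3 replicate 2 (-0.35), and that of SPC25 when any library other than si-SCR replicate 3 was left out, at values from -0.19 to -0.15.

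MIS12, whose complex joins the outer kinetochore to the centromere, rose. It was at 12.05, 11.29 and 11.58 FPKM in si-SCR and 14.37 and 14.35 in si-circVAMP3, 23.4% more in the mean (0.29, SE 0.049, adjusted p = 0.00689). The call was lost without either si-circVAMP3 library, although the value stayed at 0.29. Of the other subunits of that complex, DSN1 was at 0.15 (0.03 to 0.26; called higher with median centring) and NSL1 at -0.14 (-0.29 to 0.01). PMF1, the remaining subunit and no member of the list, fell (-0.34, adjusted p = 0.0104; not called without either si-circVAMP3 library, -0.32 and -0.37). KNL1, ZWINT and ZWILCH, which dock checkpoint proteins, were at -0.18, 0.09 and -0.04, and none of them was called, although limma-voom on the recovered reads called KNL1 lower.

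At the centromere and inner kinetochore, 3 of 8 genes fell (37.5%, beside 15.8% of all genes), none rose (beside 14.6%) and 5 were not called (median -0.08). CENPA, the histone variant that marks centromeres, was at 13.02, 12.05 and 12.59 FPKM in si-SCR and 7.97 and 9.19 in si-circVAMP3, and its mean fell by 31.6% (-0.53, SE 0.071, adjusted p = 0.00338). CENPI was at 7.44, 7.33 and 7.09 FPKM against 6.31 and 6.24 (-0.20, adjusted p = 0.03), and CENPF, a large coiled-coil protein of the fibrous corona, at 29.43, 30.21 and 29.62 FPKM against 26.54 and 27.41 (-0.14, adjusted p = 0.0426). CENPA kept its call with any library left out, whereas CENPI and CENPF lost theirs when any library other than si-SCR replicate 3 was left out, at values from -0.21 to -0.19 and from -0.16 to -0.12. Among the genes not called, CENPN was the highest, at 24.13, 25.59 and 26.29 FPKM against 27.02 and 27.81 (0.11, interval -0.01 to 0.23). CENPU was at -0.17 (-0.32 to -0.02), CENPK at -0.03 (-0.15 to 0.09) and CENPC, the bridge from centromere to kinetochore, at -0.02 (-0.19 to 0.15). CENPH was at 0.00 (-0.20 to 0.20), from si-circVAMP3 libraries at 31.5 and 38.07 FPKM, and was at 0.13 without replicate 1 of them and -0.14 without replicate 2.

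Of 5 checkpoint genes tested, BUB1B was called lower (20%, beside 15.8% of all genes) and 4 were not called (median 0.08). BUB1B, the BubR1 subunit of the inhibitor of the anaphase-promoting complex, was at 38.77, 39.11 and 39.91 FPKM in si-SCR and 35.78 and 33.56 in si-circVAMP3 (-0.18, SE 0.045, adjusted p = 0.0259). Its call was lost without si-SCR replicate 2 (-0.18) and without either si-circVAMP3 library (-0.22 without replicate 1 and -0.13 without replicate 2). MAD2L1, which captures CDC20 for that inhibitor, was at 47.05, 44.79 and 49.91 FPKM against 52.08 and 51.4 (0.13, adjusted p = 0.107) and was called without si-SCR replicate 3 (0.17). BUB1, BUB3 and TTK were at 0.08, 0.09 and -0.03, with intervals that reached from -0.14 to 0.20. MAD1L1, the anchor of MAD2L1, had values of 0.124, 0.089, 0.067, 0.075 and 0.139 FPKM from 10 to 29 reads per library.

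Counting limits bear on 6 genes whose exons overlap another gene of the same strand in GENCODE v44, where reads could be split or dropped in counting. The overlap covered 86.8% of the exon bases of NUSAP1 (1.23 to 1.77 FPKM), 57.6% of PRC1, 43.2% of MAD1L1, 12.6% of CENPN, 10.2% of BUB1B and 7.1% of CENPA. Without these genes the counts were 19 lower and 2 higher.

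Of 6 genes of the chromosomal passenger complex and the shugoshins, which protect centromeric cohesion, AURKB was called lower (16.7%, near the 15.8% of all genes) and 5 were not called (median 0.00). AURKB, the catalytic subunit, was at 43.55, 44.78 and 45.86 FPKM in si-SCR and 34.72 and 36.65 in si-circVAMP3, and its mean fell by 20.2% (-0.32, SE 0.045, adjusted p = 0.00377). It kept its call with any library left out. Its binding partners INCENP, BIRC5 and CDCA8 were at 0.04 (-0.18 to 0.26), -0.04 (-0.12 to 0.05) and 0.06 (-0.03 to 0.16). SGO1, at 14.76, 15.53 and 15.59 FPKM against 16.02 and 16.36, was at 0.08 (-0.03 to 0.19), and SGO2 at -0.13 (-0.29 to 0.03).

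None of the 4 genes that start anaphase was called, beside 15.8% of all genes called lower and 14.6% higher (median -0.05). With 4 genes, an absence of calls says little. They include some of the most abundant of the set. UBE2C, the E2 enzyme of the anaphase-promoting complex, was at 292.59, 305.76 and 294.06 FPKM in si-SCR and 299.53 and 297.75 in si-circVAMP3 (0.01, interval -0.09 to 0.10), and quantile normalization turned this to -0.12, called lower. CDC20, the activator of that complex, was at 153.32, 159.46 and 154.72 FPKM against 157.07 and 150.86 (-0.02, interval -0.11 to 0.08). PTTG1, the securin that it destroys, was at 50.27, 52.35 and 51.9 FPKM against 48.46 and 44.48 (-0.15, adjusted p = 0.0639; called lower with quantile normalization and with limma-voom on the recovered reads), and ESPL1, the separase held by securin, was at -0.09 (-0.24 to 0.05).

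Spindle assembly factors fell in 3 of 6 cases (50%, beside 15.8% of all genes) and none rose (beside 14.6%), with a median of -0.19. CKAP2, which promotes microtubule nucleation, was at 47.49, 46.22 and 46.81 FPKM in si-SCR and 35.74 and 33.25 in si-circVAMP3 (-0.44, SE 0.046, adjusted p = 0.00147). ASPM, a spindle pole protein known from primary microcephaly, was at 18.6, 17.13 and 17.78 FPKM against 13.99 and 13.84 (-0.35, adjusted p = 0.00442). TPX2, the activator of Aurora A, was at 140.63, 144.17 and 144.25 FPKM against 128.3 and 128.67 (-0.15, adjusted p = 0.0214). CKAP2 and ASPM kept their calls with any library left out, and TPX2 lost its call without si-SCR replicate 2 or either si-circVAMP3 library, at values from -0.16 to -0.15. HMMR, a microtubule-binding partner of TPX2, was at 23.67, 22.32 and 22.1 FPKM against 24.69 and 22.8 (0.06, interval -0.07 to 0.19), NUSAP1, a microtubule bundler, at -0.23 (-0.44 to -0.02), and TOP2A, which untangles sister chromatids, was at -0.06 (-0.19 to 0.08).

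**Figure D3:**
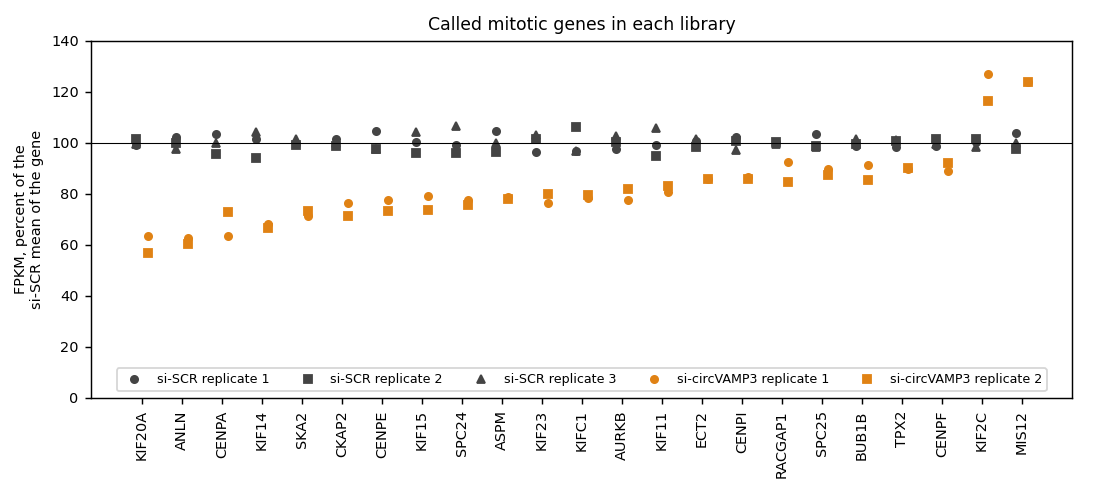
FPKM of the 23 called mitotic genes in each of the 5 libraries, as a percent of the gene's si-SCR mean (points, dark grey for si-SCR and orange for si-circVAMP3, with a shape per replicate). The 2 si-circVAMP3 libraries lie below all si-SCR libraries for the 21 genes called lower and above them for KIF2C and MIS12. The genes were picked by their calls in these libraries, so this separation largely restates the calls. Of all genes tested, 28.9% lay below and 29.5% above in this way.

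Of the 23 calls, 10 held in all 5 fits that left out a library: KIF20A, KIF14, CENPE, KIF23, ANLN, SKA2, CENPA, AURKB, CKAP2 and ASPM. The number called fell to 11 lower and 1 higher without si-circVAMP3 replicate 2, and to 14 lower and 0 higher without si-circVAMP3 replicate 1. The calls of BUB1B, CENPF, SPC25, TPX2 and RACGAP1 were also lost with median centring and with a variance prior without trend.

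Other genes of cell division were read from 8 lists that hold none of the 60 genes. Over all genes, 15.8% were called lower and 14.6% higher. The list nearest in function, other spindle and cytokinesis genes, had 11 of 26 lower (42.3%) and 2 higher (7.69%), with a median of -0.18. The smallest p-value among those that fell was that of FAM83D, which brings the kinesin KID (KIF22) and casein kinase to the spindle (64.9 ± 2.13 FPKM, n = 3, against 36.3 ± 0.607, n = 2; -0.83, adjusted p = 0.000168), and the smallest among those that rose was that of HAUS8, an augmin subunit (0.43, adjusted p = 0.00273). Other centromere and kinetochore genes had 6 of 23 lower (26.1%, beside 15.8% of all genes) and 3 higher (13%, near the 14.6% of all genes), with a median of -0.03. They were led by CENPW (-0.35, adjusted p = 0.00764, but not called without si-circVAMP3 replicate 1, at -0.27) and CENPX (0.44, adjusted p = 0.00175). The anaphase-promoting complex and its regulators had 6 of 17 lower (35.3%, beside 15.8% of all genes) and 0 higher (beside 14.6%), with a median of -0.01. They were led by the small subunit ANAPC15 (-0.70, adjusted p = 0.000682), which promotes checkpoint turnover. Condensin and cohesin had 4 of 12 lower (33.3%, beside 15.8% of all genes) and 0 higher (beside 14.6%), with a median of -0.05. They were led by STAG1 (-0.24, adjusted p = 0.00942, but not called without either si-circVAMP3 library, at -0.25 and -0.23).

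Of 15 entry kinases, cyclins and phosphatases, 4 fell (26.7%), 2 rose (13.3%) and 9 were not called (median -0.06), beside 15.8% and 14.6% of all genes. CDC25B, the phosphatase that activates CDK1, was at 30.1 ± 2.06 FPKM (SD, n = 3) in si-SCR and 12.3 ± 0.217 (SD, n = 2) in si-circVAMP3 (-1.25, adjusted p = 0.00016), and WEE1, the kinase that restrains CDK1, rose from 12.9 ± 0.564 to 19.9 ± 0.0139 FPKM (0.61, adjusted p = 0.00075). PLK1, singled out after its value was seen because it acts on kinetochores and the midzone, fell from 48.6 ± 2.23 to 30.6 ± 0.19 FPKM (-0.66, adjusted p = 0.000489).

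Among 22 regulators of cell cycle transcription, 4 fell (18.2%, near the 15.8% of all genes) and 6 rose (27.3%, beside 14.6%), with a median of 0.03. MYBL2, the activator that joins MuvB on promoters of mitotic genes, fell from 208 ± 14.7 to 105 ± 2.72 FPKM (-0.99, adjusted p = 0.000294), and CDKN1A, the CDK inhibitor p21, rose from 10.8 ± 0.96 to 17.2 ± 0.692 FPKM (0.65, adjusted p = 0.00223). FOXM1, also singled out after its value was seen, fell from 70.4 ± 4.79 to 55.5 ± 0.909 FPKM (-0.34, adjusted p = 0.00895) and was not called without either si-circVAMP3 library (-0.32 and -0.35).

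S phase genes and the kinesins of interphase transport were read in the same way, and differences between lists were not tested. Of 22 genes of replication licensing and S phase, 1 fell (4.55%, beside 15.8% of all genes) and 8 rose (36.4%, beside 14.6%), with a median of 0.11. GINS2 fell (-0.28, adjusted p = 0.0271, but not called without si-SCR replicate 2 or either si-circVAMP3 library, at values from -0.33 to -0.24). ORC1 rose (0.36, adjusted p = 0.00312). Of 18 transport kinesins and light chains tested (24 listed), 4 fell and 2 rose (median -0.02). The shares, 22.2% lower and 11.1% higher, were near the 15.8% and 14.6% of all genes. The calls were led by the neuronal heavy chain KIF5C (-1.06, adjusted p = 0.000822) and KIF3B, a motor of cilia (0.31, adjusted p = 0.00704, but not called without si-circVAMP3 replicate 1, at 0.27).

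**Figure D4:**
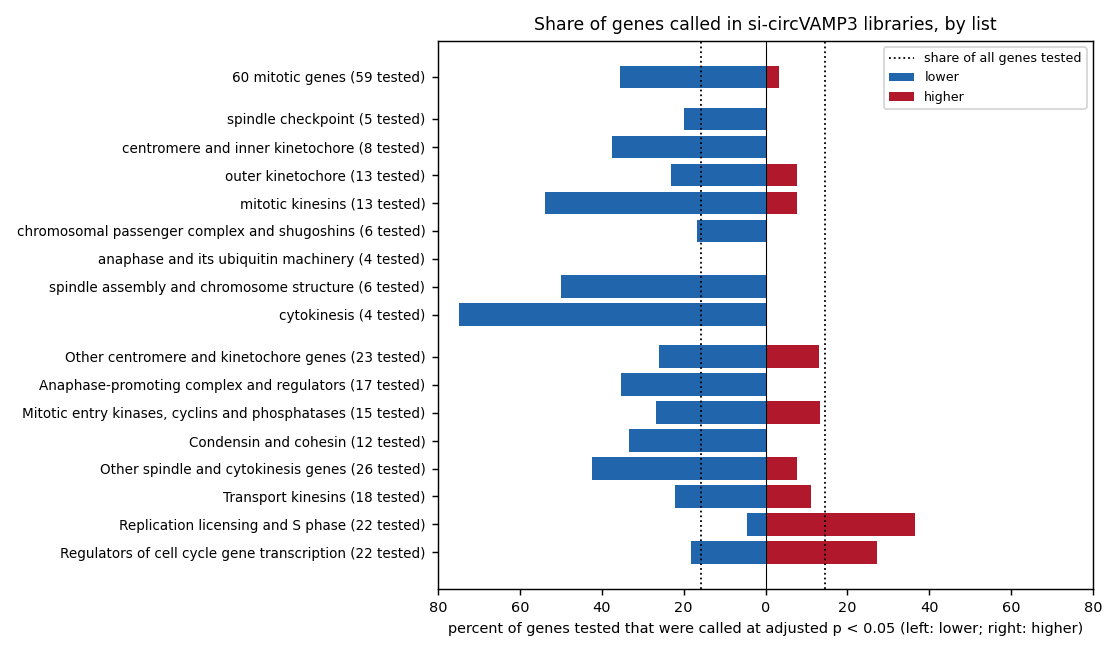
Percent of the genes tested that were called at adjusted p < 0.05, lower to the left and higher to the right, for the 60 mitotic genes, their 8 roles and 8 other lists, with dotted lines at the shares of all genes (15.8% and 14.6%). The mitotic genes reached 35.6% lower and 3.39% higher, and the S phase list 4.55% lower and 36.4% higher.

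The elements marked in the promoters above were counted over the whole set. A RefSeq window was found for 52 of the 60 genes. TTTGAA was in 32 of 52 (61.5%), against 18.2% of all 27305 genes of that table, and CCAAT in 38 (73.1%), against 39.7%; among the 9326 tested genes with a window the shares were 13.6% and 44.3%. Among the genes called lower, 12 of 19 windows (63.2%) held TTTGAA and 13 (68.4%) CCAAT, and among those not called 20 of 30 (66.7%) held TTTGAA and 24 CCAAT. TTCCCGCC was in 5 of 52 (9.62%), against 3.79% of all genes and 6.49% of the genes tested. By role, TTTGAA was in 9 of 13 kinesins, 6 of 12 outer kinetochore genes and 2 of 5 passenger complex and shugoshin genes. It was also in 3 of 3 cytokinesis genes, 4 of 5 spindle assembly genes and 4 of 7 centromere and inner kinetochore genes. The remaining roles had it in 2 of 4 checkpoint genes and 2 of 3 anaphase genes. Of the 2 genes that rose, KIF2C held none of the motifs, and MIS12 held CCAAT and TTCCCGCC. A window without these letters says nothing about which factors bind there.

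Matches to the siRNA seeds were counted after the results were seen, in the 3′ UTR of each gene's canonical GENCODE v44 transcript. GTGGACA, the match to the seed of the complementary strand, was in 5 of the 59 genes tested: ANLN, KIF15, CENPU, SGO2 and NSL1. Of these 5, 2 were called lower (ANLN and KIF15), with a median log2 fold change of -0.17. Of the 54 genes without it, 19 were called lower (35.2%) and 2 higher, with a median of -0.07. No member held CGATGAT, the match to the seed of the listed strand. Over the genes tested with an annotated 3′ UTR, 33.7% of the 1257 with GTGGACA were called lower and 7.56% higher (median -0.11). Of the 9665 without it, 13.9% were called lower and 16.8% higher (median 0.03). Of the 198 with CGATGAT, 20.2% were called lower and 12.1% higher, against 16.1% and 15.8% of those without it. The 3′ UTRs with a match were also longer, with medians of 2947 bases against 1240 for GTGGACA and 3614 against 1351 for CGATGAT. The part of these matches in the changes of ANLN and KIF15 was not tested.
The sites of the genes called lower are shown, with the match in capitals: ANLN at chr7:36453165-36453171 and KIF15 at chr3:44853024-44853030, both on the plus strand of GRCh38.
ANLN site: gaaaagtgatGTGGACAtaggaggcaa
KIF15 site: aaggtttacaGTGGACAttagccagat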

How the data were processed

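Poly-A+ RNA of RH4 cells was sequenced as 3 si-SCR and 2 si-circVAMP3 biological replicates, grouped by their labels. The authors trimmed reads (Trimmomatic), aligned them to GRCh38 with STAR 2.5.2b, counted them per gene by strand with HTSeq, dropped genes of low counts, and deposited FPKM values made with the rpkm function of edgeR. Symbols came from GENCODE v44 by Ensembl ID (13783 of 13822 rows). As FPKM values are not counts, the comparison was made with limma 3.58.1 (R 4.3.3; moderated variance with trend, two-sided) on log2(FPKM + 0.5), over 12245 genes with a mean of at least 0.5 FPKM. Benjamini-Hochberg adjusted p-values run over all genes tested, and a call is an adjusted p below 0.05. Log2 fold changes are on that scale, which understates changes of low genes. Members named with every library's value were the 20 called with the smallest p and the lowest and highest of each role; from each other list, the called gene with the smallest p in each direction was named with its fold change; SPC25, RACGAP1, CENPF and further partners were added after their values were seen. Members and lists were chosen with earlier results of these data known.

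Ratios of a gene's FPKM between libraries are ratios of whole numbers times a constant per library, so reads were recovered to within 0.001 for 100.0% of genes; a factor shared by all libraries was restored for 488 genes from GENCODE exon lengths. Depth was therefore 18978696 to 29367311 reads in the genes deposited. The procedure was tested on data simulated with the spread of the si-SCR libraries. It recovered 64% of log2 changes of 0.5 and 89% of changes of 1, and 4.97% of its calls were false. Smaller changes, as most of those here, were not simulated. Alternatives were other pseudocounts, filters, scalings and variance priors, a replicate block, a fold threshold of 0.58, leaving out each library, and, added after seeing the data, limma-voom on the recovered reads and a count without overlapping genes.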

Additional observations from a re-analysis of the deposited data

How the results depend on the processing

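Counts of the mitotic genes called (21 lower, 2 higher) stayed within 1.5 times under the other pseudocounts, filters and variance priors, quantile normalization and limma-voom on recovered reads (24 lower, 3 higher; 2186 and 1930 among all genes), except for 4 higher with median centring. Limma-voom added KNL1, KIF18A and PTTG1 as lower and KIF18B as higher. With an absolute log2 fold change above 0.58, calls were 2 lower and 0 higher among the mitotic genes, 333 and 133 among all genes, and 6 and 2 in the 8 other lists. Leaving out single libraries gave 11 to 21 lower and 0 to 3 higher mitotic genes, 777 to 2015 lower and 483 to 1985 higher among all genes, and 14 to 39 lower and 9 to 22 higher in the other lists; among all genes the counts were 1224 and 975 without si-SCR replicate 2, 815 and 490 without si-circVAMP3 replicate 1 and 777 and 483 without si-circVAMP3 replicate 2. A lone si-circVAMP3 library has no spread of its own, which is then assumed to be that of si-SCR. The median log2 fold change of the mitotic genes was -0.091. It was -0.121 with quantile normalization, -0.071 with median centring, -0.108 with limma-voom, and -0.127 to -0.081 with a library left out, below 0 each time. No called member changed sign. Among members not called, with values near 0, UBE2C did with quantile normalization (-0.124), limma-voom (-0.001), the replicate block (-0.002) and single libraries left out (-0.006 to 0.026). CENPH did with median centring (0.018), the block (0.034), limma-voom (0.007) and single libraries left out (-0.137 to 0.132). CENPC did with quantile normalization (0.004), median centring (0.003) and single libraries left out (-0.105 to 0.071), and NUF2 (0.007) and CDC20 (0.003) with median centring, and INCENP with the block (-0.029). With single libraries left out, the ranges crossing 0 were -0.059 to 0.048 for NUF2, -0.046 to 0.012 for CDC20, -0.029 to 0.132 for INCENP, -0.063 to 0.001 for TTK, -0.054 to 0.005 for KIF20B, -0.124 to 0.012 for TOP2A and -0.127 to 0.004 for PRC1.

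The labels do not say whether same-numbered libraries were made together. Deviations of same-numbered libraries correlated at -0.15 and -0.04 across genes. The deviations of 2 si-circVAMP3 libraries mirror each other, so these values cannot settle whether the libraries were paired. With the replicate number as a block, 17 mitotic genes were lower and 3 higher, and the median was -0.122. The block ended the calls of BUB1B, CENPF, CENPI, TPX2 and RACGAP1 and added MAD2L1 and KIF18A; 1662 genes were lower and 1460 higher over all genes. With 3 against 2 libraries, an exact permutation test of a single gene cannot go below p = 0.1.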
